A study of Mus musculus with 4 samples.

Results

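The 10 genes described here encode the subunits of the transcription factor NF-kappa-B and the proteins that hold it in check. They were chosen by name from a table of 54532 genes measured in mouse pancreatic islets, and all 10 were found. Of these, 5 encode subunits (Nfkb1, Nfkb2, Rela, Relb and Rel), 3 the classical cytoplasmic inhibitors (Nfkbia, Nfkbib and Nfkbie), 1 the nuclear inhibitor-like protein I-kappa-B-zeta (Nfkbiz) and 1 the ubiquitin-editing enzyme A20 (Tnfaip3). Islet RNA came from male C57BL/6 mice of 10 to 12 weeks. The libraries transgenic 1 and transgenic 2 came from mice whose beta cells express added copies of 2 linked microRNAs, miR-29a and miR-29b-1. Wild-type mice of the same strain, sex and age gave 2 libraries, wild type 1 and wild type 2. The labels name no promoter for the transgene and no founder line, and they do not say whether a library held islets of 1 mouse or of a pool. They also do not say what a shared library number stands for, so p-values speak only of how far these libraries lie apart, which may be technical.

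NF-kappa-B is a dimer of Rel-family subunits. Nfkb1 and Nfkb2 are made as precursors that are processed to DNA-binding subunits without an activation domain of their own, while Rela, Relb and Rel carry one. In resting cells I-kappa-B proteins keep the dimers in the cytoplasm. Signals from cytokine and Toll-like receptors activate the I-kappa-B kinase, the inhibitor is degraded and the dimer enters the nucleus, where it switches on genes that include Nfkbia and Tnfaip3, its own brakes. A second route, through the kinase NIK (Map3k14), acts on the Nfkb2 precursor and on dimers with Relb, and Traf3 keeps NIK low. In islets the pathway is best known for the response of beta cells to interleukin 1.

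Reads in genes, recovered from the deposited FPKM (reads scaled by gene length and by library size), came to between 21670854 and 27080907 per library. Of all genes, 12716 had at least 1 FPKM in at least 2 libraries and were compared, all 10 members among them. Libraries with the same number resembled each other more than libraries of the same genotype. Across genes, which are not independent replicates, Pearson's r was 0.985 between transgenic 1 and wild type 1, 0.989 between transgenic 2 and wild type 2, and 0.95 within each genotype, over the genes compared. For this reason the values of transgenic over wild type are given within each number, and the difference between numbers is described as a comparison of its own. All 14 beta cell markers checked were high enough to be compared, as were 27 of 30 acinar cell markers and 13 of 20 macrophage and dendritic cell markers, but only 1 of 18 lymphocyte markers, of which Cd3e and Cd8b1 had 0 reads. These are islets that hold exocrine and immune RNA besides that of beta cells, and the members can come from any of these cells. In whole-islet RNA, fewer cells of a type and less RNA per cell cannot be told apart.

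miR-29a and miR-29b act on messenger RNAs through the seed, bases 2 to 8. The mature sequences of both microRNAs of the transgene are shown because their seed sets the letters searched for (RefSeq, GRCm38.p6). Loci are those of the endogenous copies, and the seed is in capitals.
mmu-miR-29a-3p, chr6:31062673-31062694, minus strand: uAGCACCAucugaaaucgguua
mmu-miR-29b-3p, chr6:31063025-31063047, minus strand: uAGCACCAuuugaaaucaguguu
The seed was the same in both, and the sequences differed at 4 of 22 positions compared. The 7 letters that pair with it, TGGTGCT, were searched on the sense strand of the longest 3′ untranslated region of each gene. They occurred in 2 of the 10 members and in 15.5% of the 10698 genes compared that have such a region. Rela held 1 match, 409 bases after the stop codon, and Rel held 2, at 1107 and 2351 bases (GENCODE M21, GRCm38; the match is in capitals).
Rela site 1, chr19:5647807-5647834, plus strand: ccaagagcagctcctacgTGGTGCTgcc
Rel site 1, chr11:23741149-23741176, minus strand: cacacacagaggtttgtgTGGTGCTaga
Rel site 2, chr11:23739905-23739932, minus strand: cgtacactctggcctaacTGGTGCTgta
Nfkb1, Nfkb2, Relb, Nfkbia, Nfkbib, Nfkbie, Nfkbiz and Tnfaip3 had no match in the region searched. Shorter matches, and other regions of the transcripts, were not searched. A match of letters is a description of the sequence and not a site shown to act.

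NF-kappa-B is known to drive several of its own subunits and inhibitors, so the promoter windows of the members were searched for the kappa-B consensus, a motif of 10 bases read on both strands. RefSeq (GRCm38.p6) gave windows, 250 bases before to 50 after a start, for 7 members. The motif occurred in 5 of the 7, namely Nfkbia, Nfkb2, Rel, Nfkbie and Tnfaip3, and in 9.55% of the 27025 genes with a window. Rela and Nfkbib had none in their windows. The windows of the most abundant member, Nfkbia, and of the 3 members with a window that differed most between library numbers are shown, with the motif in capitals and matches that overlap joined.
Nfkbia promoter, chr12:55492598-55492897, minus strand: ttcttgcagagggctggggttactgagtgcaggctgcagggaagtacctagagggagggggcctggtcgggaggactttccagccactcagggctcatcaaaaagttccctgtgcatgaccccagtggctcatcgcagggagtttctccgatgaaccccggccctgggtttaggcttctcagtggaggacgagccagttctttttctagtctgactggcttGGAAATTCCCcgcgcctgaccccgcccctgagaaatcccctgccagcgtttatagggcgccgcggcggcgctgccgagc
Nfkb2 promoter, chr19:46304487-46304786, plus strand: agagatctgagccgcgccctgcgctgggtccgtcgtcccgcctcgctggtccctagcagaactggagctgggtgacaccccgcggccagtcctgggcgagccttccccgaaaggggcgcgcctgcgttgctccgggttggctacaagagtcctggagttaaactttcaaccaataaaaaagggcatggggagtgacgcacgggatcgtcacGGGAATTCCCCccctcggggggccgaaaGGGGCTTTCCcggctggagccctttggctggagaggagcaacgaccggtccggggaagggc
Rel promoter, chr11:23770920-23771219, minus strand: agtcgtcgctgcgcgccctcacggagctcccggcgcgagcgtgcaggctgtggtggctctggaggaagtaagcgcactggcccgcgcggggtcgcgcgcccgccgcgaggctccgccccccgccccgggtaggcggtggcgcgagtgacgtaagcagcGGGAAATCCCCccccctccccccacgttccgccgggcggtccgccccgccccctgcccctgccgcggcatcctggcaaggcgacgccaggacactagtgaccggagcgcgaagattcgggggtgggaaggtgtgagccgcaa
Tnfaip3 promoter, chr10:19015361-19015660, minus strand: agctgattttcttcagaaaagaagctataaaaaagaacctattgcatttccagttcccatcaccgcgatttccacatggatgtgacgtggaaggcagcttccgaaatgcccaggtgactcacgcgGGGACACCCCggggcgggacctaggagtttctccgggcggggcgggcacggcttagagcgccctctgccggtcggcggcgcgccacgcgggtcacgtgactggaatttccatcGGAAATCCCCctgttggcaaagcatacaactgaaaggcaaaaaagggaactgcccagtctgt
In the window of Nfkbia the match began at position -29, counting the start of the transcript as 0, and in that of Rel overlapping matches began at -92 and -91. RefSeq gives other starts too, 2 for Nfkb2 and 1 for Tnfaip3, whose windows are not shown. In the window of Nfkb2 shown, overlapping matches began at -39 and -38 and another at -11, and the other windows of this gene held matches at -236 and 10 and at -225. In the window of Tnfaip3 shown they began at -125 and -12, and its other window held none.

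Nfkbia, the inhibitor that NF-kappa-B itself induces, was the most abundant member per length in every library. Its transcript level (chromosome 12, 55489410 to 55492647, minus strand) was 90.9 and 58.6 FPKM in transgenic 1 and 2, against 56.6 and 51.5 FPKM in wild type 1 and 2. Nfkbiz, whose product binds subunits in the nucleus (chromosome 16, 55811375 to 55838899, minus strand), came next, with 39.4 and 23.4 FPKM in transgenic 1 and 2 and 39.8 and 20.8 FPKM in wild type 1 and 2. The ranges of these 2 genes overlapped neither each other nor those of the other 8 members. Rela, the main activating subunit in most cells (chromosome 19, 5637483 to 5648130, plus strand), stood at 18.9 and 10.5 FPKM in transgenic 1 and 2 and at 14.5 and 9.02 FPKM in wild type 1 and 2. It lay above Nfkbib, and Nfkbib above Nfkb2, in each of the 4 libraries, although the ranges over libraries of these neighbours overlapped.

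The remaining members had lower and mostly overlapping levels per length. Nfkbib, which encodes I-kappa-B-beta (chromosome 7, 28758251 to 28767512, minus strand), had 14.2 and 9.0 FPKM in transgenic 1 and 2 and 11.4 and 6.01 FPKM in wild type 1 and 2. Nfkb2, the precursor subunit of the NIK route (chromosome 19, 46304737 to 46312090, plus strand), had 10.2 and 5.98 FPKM in the transgenic libraries and 9.76 and 3.99 FPKM in the wild-type ones, again with number 1 first. Both genes thus stood lower in the libraries numbered 2 whatever the genotype. Nfkb1, the other precursor subunit (chromosome 3, 135584655 to 135691547, minus strand), varied least, with 6.22 and 7.07 FPKM in transgenic 1 and 2 and 5.79 and 7.17 FPKM in wild type 1 and 2. It was the one member that stood higher in both libraries numbered 2. Tnfaip3 (chromosome 10, 19000910 to 19015657, minus strand) varied most, with 13.2 and 2.62 FPKM in transgenic 1 and 2 and 8.09 and 1.95 FPKM in wild type 1 and 2, a highest value 6.77 times the lowest. Relb, the partner of the processed Nfkb2 (chromosome 7, 19606217 to 19629438, minus strand), had 6.25 and 3.88 FPKM in transgenic 1 and 2 and 5.98 and 1.91 FPKM in wild type 1 and 2. The lowest levels were those of Rel, which encodes c-Rel, best known from lymphocytes (chromosome 11, 23736847 to 23770970, minus strand), and of Nfkbie, which encodes I-kappa-B-epsilon (chromosome 17, 45555703 to 45563169, plus strand). Rel had 3.07 and 0.708 FPKM in transgenic 1 and 2 and 2.81 and 0.661 FPKM in wild type 1 and 2. Nfkbie had 1.71 and 0.891 FPKM in transgenic 1 and 2 and 1.28 and 0.722 FPKM in wild type 1 and 2. In each of these last 4 genes the genotypes overlapped, while both libraries numbered 1 lay above both numbered 2. The levels rest on between 57 and 5095 reads per gene and library. In GENCODE M21, exons of Nfkb2 are shared with AC114539.1 over 11.6% of their bases and with Psd over 6.52%. Those of Nfkbib are shared with Ccer2 over 14.5% and Sirt2 over 1.94%. All 4 overlapping genes lie on the opposite strand, so their reads cannot be told apart where strand was not used, which the sources used here do not give. That annotation gives Nfkb2 4584 exon bases and the deposited data give it 3289, so its shares in the deposited values can differ.

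**Figure D1:**
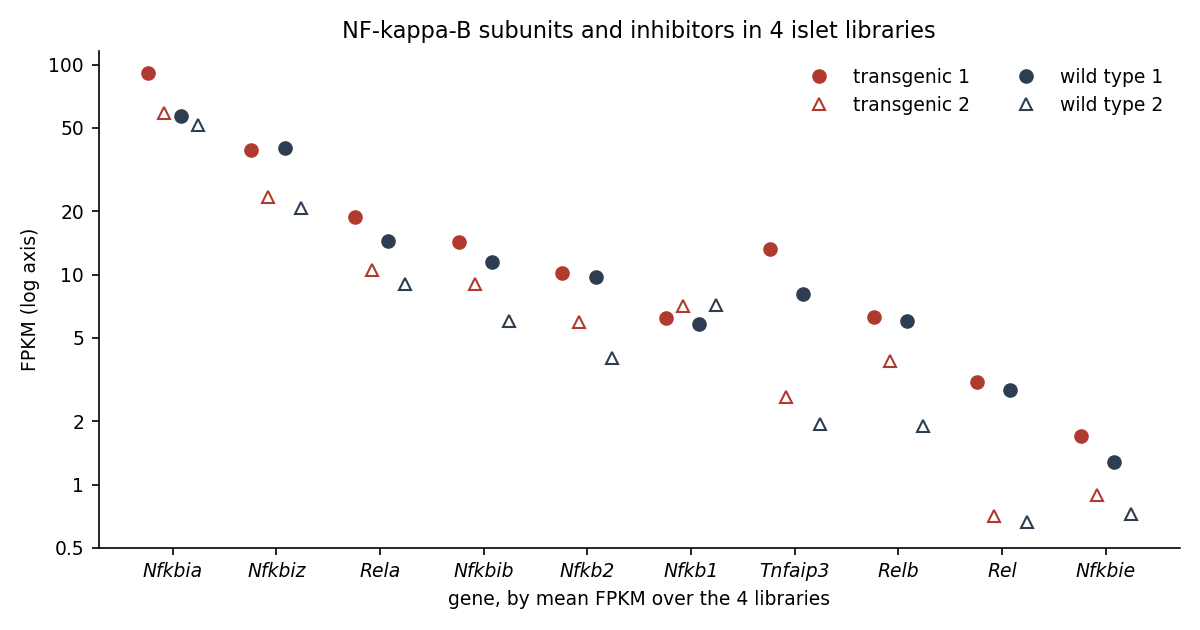
FPKM of the 10 members (log axis) in each of the 4 libraries, with members ordered by their mean; red marks are transgenic, dark marks wild type, filled circles the libraries numbered 1 and open triangles those numbered 2. In 8 of the 10 genes both triangles lie below both circles, whereas Nfkb1 has them above.

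Transgenic and wild-type islets were compared to see whether added miR-29 in beta cells went with a different level of any member. None of the 10 members passed the test across the 4 libraries (limma on log2(FPKM + 1), Benjamini-Hochberg adjusted p = 1.00 for each), as none of the 12716 genes did (0% called). At an unadjusted p under 0.05 there were 0 members and 83 genes. Without a term for number, voom, limma's method for reads, also called 0 genes (31 at an unadjusted p under 0.05). With such a term voom did call genes, Nfkbia and Tnfaip3 among them, as given at the end. The labels state no pairing, and that fit leaves 1 residual degree of freedom per gene. Within numbers, however, 8 members stood higher in the transgenic library in both, and 33.5% of the genes compared did so. The median log2 fold change of the members was 0.27 over all libraries, against 0.01 for all genes compared. Within numbers it was 0.17 in number 1 and 0.19 in number 2, against 0.02 and 0.01 for all genes compared.

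Among the inhibitors, Nfkbia was the one whose genotypes did not overlap across the 4 libraries. Within each number the ratio of Tnfaip3, given below, was larger. The mean of Nfkbia was 74.8 ± 22.8 FPKM in transgenic and 54.1 ± 3.64 FPKM in wild-type islets (SD, n = 2 each). In limma this was a log2 fold change of 0.43 ± 0.26 (standard error), not past the threshold. It was the only member with both transgenic libraries above both wild-type ones, a pattern of 12.2% of the genes compared. No member had both below, as 9.03% of the genes compared did. The ratio of transgenic to wild type was 1.61 in number 1 (95% exact interval of the reads 1.52 to 1.69) and 1.14 in number 2 (1.07 to 1.21). Such intervals compare a pair of libraries and cover counting error only, not the spread between islet preparations. Nfkbib had ratios of 1.25 (1.12 to 1.39) and 1.5 (1.29 to 1.73) in numbers 1 and 2, with means of 11.6 ± 3.70 and 8.71 ± 3.82 FPKM in transgenic and wild-type islets (log2 fold change 0.40 ± 0.37). Nfkbie had ratios of 1.33 (1.02 to 1.76) and 1.23 (0.840 to 1.81), so that the second was within counting error. The transcripts of all 3 classical inhibitors together summed to 107 and 68.5 FPKM in transgenic 1 and 2, against 69.3 and 58.2 FPKM in wild type 1 and 2, and Nfkbia made up 81.7 to 88.4% of these sums.

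Tnfaip3, whose product removes the ubiquitin chains on which the signal depends, had ratios of 1.63 (1.52 to 1.74) in number 1 and 1.35 (1.16 to 1.56) in number 2. Both pairs thus differed by more than counting error and in the same direction, but the gap between numbers was wider than that between genotypes. Its means of 7.90 ± 7.47 FPKM in transgenic and 5.02 ± 4.35 FPKM in wild-type islets differed by less than their SDs (log2 fold change 0.47 ± 0.87). Nfkbiz had ratios of 0.989 (0.95 to 1.03) and 1.13 (1.07 to 1.19), with means of 31.4 ± 11.3 FPKM in transgenic and 30.3 ± 13.5 FPKM in wild-type islets.

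Of the subunits, Rela had ratios of transgenic to wild type of 1.30 (1.20 to 1.42) in number 1 and 1.16 (1.04 to 1.30) in number 2. Rel, the other gene with matches to the miR-29 seed, had ratios of 1.09 (0.968 to 1.23) and 1.07 (0.822 to 1.39), both within counting error. Neither of the members whose 3′ region holds the seed match measured lower in the transgenic library of either number. Whether miR-29 acts on these members was not tested. The log2 fold changes were 0.28 ± 0.36 for Rela and 0.07 ± 0.60 for Rel, and RNA of other islet cells can be part of both values. Relb and Nfkb2, which work together in the NIK route, shared a pattern. Their ratios were 1.04 (0.930 to 1.17) and 1.04 (0.946 to 1.15) in number 1, and 2.04 (1.70 to 2.45) and 1.5 (1.30 to 1.74) in number 2. A higher ratio in number 2 was not particular to this pair. In numbers 1 and 2 Tnip1 had ratios of 0.983 and 1.35 and Birc3 of 0.864 and 1.41. Map3k14, the kinase of the route, went the other way, with 1.33 and 0.986. The difference in ratio between numbers could not be tested, since each rests on 1 library per genotype. Nfkb1 had ratios of 1.07 (1.01 to 1.15) and 0.986 (0.926 to 1.05).

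**Figure D2:**
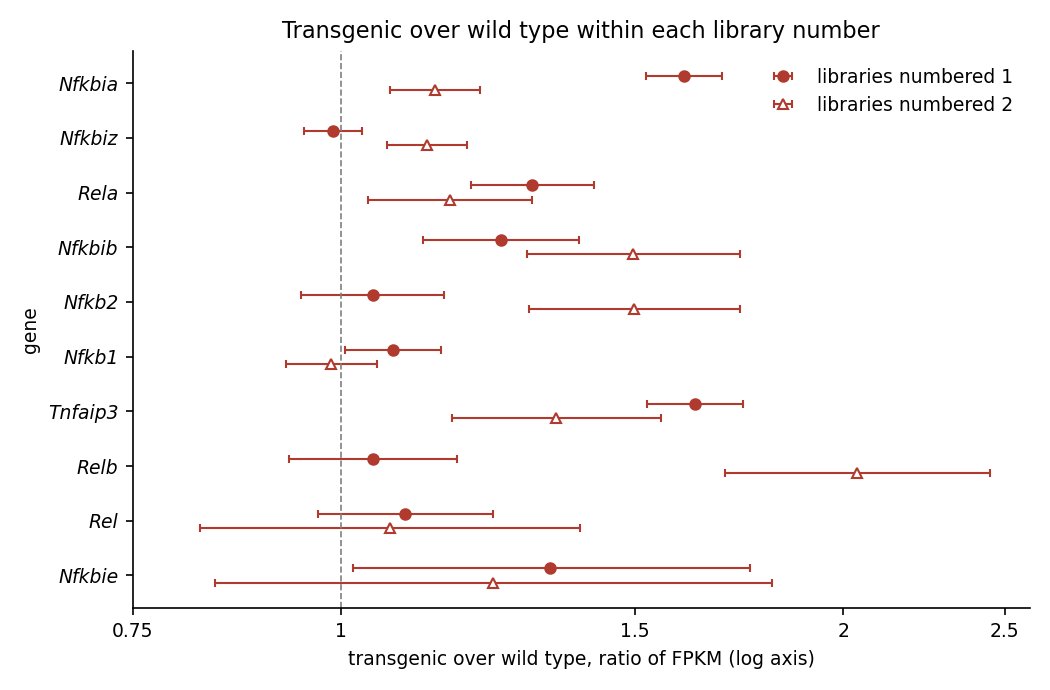
Ratio of FPKM in transgenic over wild type (log axis) for each member, within the libraries numbered 1 (filled circles) and 2 (open triangles); bars are 95% exact intervals of the reads and cover counting error only. Nfkbia, Rela, Nfkbib and Tnfaip3 have both intervals above 1, and Relb reaches 2.04 in number 2 but 1.04 in number 1. The share of all genes compared with both above 1 was not counted.

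The 4 members with both intervals above 1 were Nfkbia, Nfkbib, Rela and Tnfaip3. The share of all genes compared with both above 1 was not counted, so nothing is read from this number of members. A correction for GC content made the fold changes of Nfkbia, Nfkbib and Rela smaller and that of Tnfaip3 larger, as given at the end. Leaving out 1 library leaves the numbers unequal between genotypes. The main limma fit has no term for number, so the difference between numbers then enters the fold change. The values that follow are given for completeness and do not test the sign of a genotype difference. Without transgenic 1 the log2 fold change was -0.52 for Tnfaip3, -0.56 for Rel, -0.29 for Nfkbiz, -0.12 for Rela, -0.070 for Nfkb2 and -0.067 for Nfkbie. Without wild type 2 it was -0.34, -0.53, -0.38, -0.037, -0.28 and -0.011 in the same order of genes, -0.23 for Relb and -0.0087 for Nfkbib. That of Nfkb1 was -0.045 without transgenic 2 and -0.098 without wild type 1. That of Nfkbia lay between 0.12 without transgenic 1 and 0.74 without transgenic 2. Lists of other genes also differed between the libraries. The summed level of 30 acinar markers was 9224 and 2469 FPKM in transgenic 1 and 2 and 6920 and 1502 FPKM in wild type 1 and 2, with 26 of the 27 compared higher in the transgenic library of both numbers. The summed level of 24 immediate early genes, which stimulation switches on fast, was 6205 and 1274 FPKM in transgenic 1 and 2 and 4337 and 932 FPKM in wild type 1 and 2, with 20 of 23 higher in both numbers. That of 20 macrophage and dendritic markers was 209 and 175 FPKM in transgenic 1 and 2 and 184 and 199 FPKM in wild type 1 and 2. Their part in the members' values was not tested.

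Between library numbers the family differed far more. In the libraries numbered 2, 6 of the 10 members fell relative to those numbered 1 in limma on log2(FPKM + 1), namely Tnfaip3, Rel, Relb, Nfkb2, Nfkbiz and Rela, while none rose. Of all genes compared 10.6% fell and 10.1% rose. In 8 members both libraries numbered 2 lay below both numbered 1, as in 32.4% of the genes compared, and in 1, Nfkb1, both lay above, as in 34.4%. The median log2 difference of the members was -0.77, against 0.01 for all genes compared. Rel and Nfkbie reached the level needed for the comparison only through the libraries numbered 1, so they had to be higher there. Rel is among the 6 that fell, and both are among the 8 and in the median. Without these 2, 5 of 8 members fell, against 9.08% of the 12359 genes that did not depend on number 1 in this way.

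Tnfaip3, a brake that NF-kappa-B induces, showed the largest difference. It averaged 2.28 ± 0.48 FPKM in the libraries numbered 2 and 10.6 ± 3.60 FPKM in those numbered 1 (SD, n = 2 each), a log2 fold change of -1.80 ± 0.23 (limma adjusted p = 0.00865). Rel came second, with 0.684 ± 0.033 FPKM in number 2 and 2.94 ± 0.18 FPKM in number 1 (-1.23 ± 0.11, limma adjusted p = 0.00442). As Rel had to be higher in number 1 to be compared, its direction and this p-value are not read as support. On the FPKM themselves number 1 exceeded number 2 by 4.66 times for Tnfaip3 and 4.30 times for Rel, and the pairs of each genotype gave much the same. The ratio of number 2 to number 1 was 0.199 (95% exact interval 0.178 to 0.221) in transgenic and 0.241 (0.214 to 0.270) in wild-type islets for Tnfaip3. For Rel it was 0.230 (0.186 to 0.283) in transgenic and 0.235 (0.192 to 0.286) in wild-type islets.

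The pair of the NIK route followed. Relb had 2.89 ± 1.40 FPKM in number 2 and 6.12 ± 0.19 FPKM in number 1 (-0.92 ± 0.24, limma adjusted p = 0.0467), and Nfkb2 had 4.98 ± 1.41 and 9.97 ± 0.31 FPKM in the same order (-0.90 ± 0.17, limma adjusted p = 0.0212). For both the ratio of number 2 to number 1 was less extreme in transgenic islets, at 0.621 (0.541 to 0.712) for Relb and 0.586 (0.520 to 0.660) for Nfkb2, than in wild-type islets, at 0.318 (0.269 to 0.376) and 0.409 (0.359 to 0.465). The intervals do not overlap but cover counting error only. Each ratio rests on 1 library per number, so the difference between genotypes could not be tested. Nfkbiz fell by 0.82 ± 0.10 (limma adjusted p = 0.00790) and Rela by 0.71 ± 0.15 (limma adjusted p = 0.0274) on the log2 scale. Nfkbib differed by -0.72 ± 0.19 and Nfkbie by -0.46 ± 0.14, neither past the threshold (limma adjusted p = 0.0519 and 0.0687). Like Rel, Nfkbie had to be higher in number 1 to be compared. Nfkbia differed by -0.38 ± 0.22 (limma adjusted p = 0.267), with a ratio of number 2 to number 1 of 0.645 (0.610 to 0.681) in transgenic and 0.909 (0.856 to 0.966) in wild-type islets. Nfkb1 differed the other way, by 0.21 ± 0.09 (limma adjusted p = 0.132), with 7.12 ± 0.07 FPKM in number 2 and 6.00 ± 0.30 FPKM in number 1.

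With 3 libraries the calls of the NIK pair and of Rela were not always kept. Without transgenic 1 only Tnfaip3, Rel and Nfkbiz were called. The log2 fold changes of the pair were then about as large as with all libraries, at -0.87 for Nfkb2 (limma adjusted p = 0.0948) and -0.89 for Relb (limma adjusted p = 0.165), while that of Rela was -0.53 (limma adjusted p = 0.0781). Without wild type 1 they were -0.92 for Nfkb2 (limma adjusted p = 0.0688) and -0.94 for Relb (limma adjusted p = 0.125). The log2 fold change of Nfkbia was -0.72 without wild type 1 but -0.043 without transgenic 1, and that of Nfkbib was -0.97 without transgenic 2. Leaving out 1 library leaves the genotypes unequal between numbers. The fit has no term for genotype, so the difference between genotypes then enters the fold change of number. With no filter on low values Rel alone was called.

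**Figure D3:**
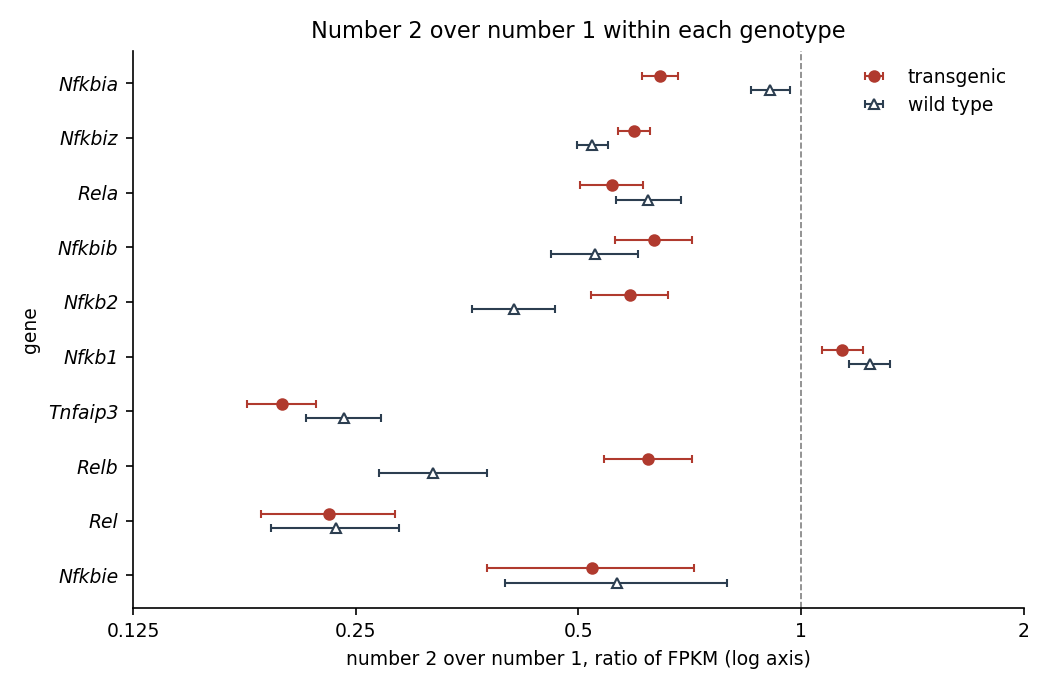
Ratio of FPKM in number 2 over number 1 (log axis) for each member in transgenic islets (red circles) and wild-type islets (dark triangles); bars are 95% exact intervals of the reads and cover counting error only. Tnfaip3 and Rel lie near 0.2 in both genotypes, 9 members lie below 1 and Nfkb1 above it.

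The make-up of the subunit transcripts differed with the number. Rela was the most abundant of the 5 per length in every library, with 37.3 to 42.3% of their summed FPKM. This order depends on the gene lengths of the deposited data, 12061 bases for Nfkb1 and 2716 for Rela. In reads Nfkb1 exceeded Rela, with 1933 against 1322 in transgenic 1 and 1792 against 598 in transgenic 2. In wild type 1 and 2 its reads were 1666 against 940 and 2242 against 635. Of the summed FPKM, Nfkb1 held 25.1% in transgenic 2 and 31.5% in wild type 2, against 13.9% in transgenic 1 and 14.9% in wild type 1. Per length it was thus the second most abundant subunit in the libraries numbered 2 and the fourth in those numbered 1. Rel held 2.52% in transgenic 2 and 2.91% in wild type 2, against 6.88% in transgenic 1 and 7.24% in wild type 1. The subunits summed to 28.1 and 22.7 FPKM in transgenic 2 and wild type 2, against 44.6 and 38.8 FPKM in transgenic 1 and wild type 1. The ratio of Nfkbia to this sum was 2.04 and 2.08 in transgenic 1 and 2 and 1.46 and 2.26 in wild type 1 and 2, so wild type 1 stood lowest.

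**Figure D4:**
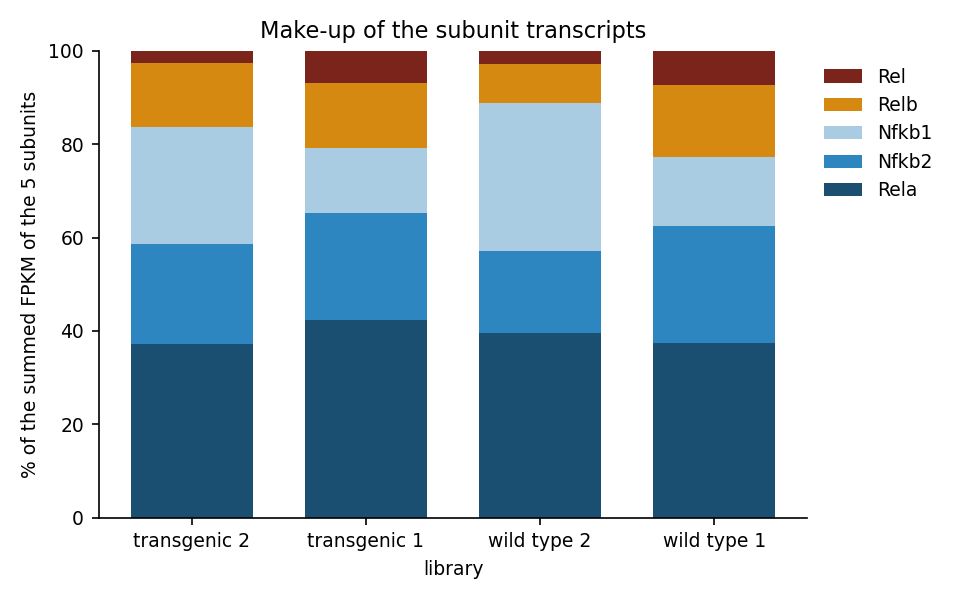
Share of each of the 5 subunits in their summed FPKM (percent, bars stacked to 100) in each library. Nfkb1 takes 25.1 and 31.5% in the libraries numbered 2 and 13.9 and 14.9% in those numbered 1, while Rela takes the largest share in each.

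The rest of the pathway was taken from lists chosen with earlier results of these data known, and no test compared one list with another. Of 32 textbook target genes of NF-kappa-B, 19 were compared, and 5 of these reached the level needed only through number 1, so they had to be lower in number 2. Of the other 14, 7 fell in the libraries numbered 2 (limma), against 9.08% of the genes that did not depend on number 1 in this way. None of the 19 rose. Junb, a subunit of AP-1, had 86.8 and 57.1 FPKM in transgenic 2 and wild type 2, against 220 and 134 FPKM in transgenic 1 and wild type 1 (limma adjusted p = 0.0345). Ier3, an early response gene, had 6.82 and 4.43 FPKM in transgenic 2 and wild type 2, against 14.5 and 11.6 FPKM in transgenic 1 and wild type 1 (limma adjusted p = 0.0195). Both also stand in the list of immediate early genes. The interferon regulatory factor gene Irf1 had 13.1 and 11.6 FPKM in transgenic 2 and wild type 2, against 21.6 and 16.9 FPKM in transgenic 1 and wild type 1 (limma adjusted p = 0.0372), while Gadd45b did not pass (0.15 ± 0.12, limma adjusted p = 0.378). None of these genes was called between genotypes in limma, and 12 of the 19 were higher in the transgenic library of both numbers, against 33.5% of all genes compared.

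Upstream, 1 of the 6 kinases fell in number 2 and none rose, against 10.6% and 10.1% of all genes compared, and the median difference was -0.08. The catalytic I-kappa-B kinase Chuk had 13.4 and 13.7 FPKM in transgenic 2 and wild type 2, against 14.6 and 15.3 FPKM in transgenic 1 and wild type 1. Its partner Ikbkb had 2.16 and 2.06 FPKM in transgenic 2 and wild type 2, against 2.30 and 2.02 FPKM in transgenic 1 and wild type 1. Neither passed the test, and their libraries lay close together. Ikbkg, the regulatory subunit of that kinase, had 5.03 and 5.46 FPKM in transgenic 2 and wild type 2, against 4.01 and 4.18 FPKM in transgenic 1 and wild type 1, so it stood higher in number 2, as Nfkb1 did (limma adjusted p = 0.0704). Map3k14, the kinase NIK, had 1.24 and 1.26 FPKM in transgenic 2 and wild type 2, against 2.25 and 1.70 FPKM in transgenic 1 and wild type 1 (limma adjusted p = 0.0840). The kinase that fell was Ikbke, named after its values were seen. Traf3 stood at 7.48 and 6.19 FPKM in transgenic 2 and wild type 2, against 8.07 and 7.98 FPKM in transgenic 1 and wild type 1 (limma adjusted p = 0.215).

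Of the 13 receptors, 8 were compared and 1 fell, Tnfrsf12a, the receptor for TWEAK. The counts of this and the next lists stand beside 10.6% of all genes compared that fell and 10.1% that rose, and no difference from these shares was tested. Il1r1, the receptor for interleukin 1, was the most abundant of the receptors named, with 121 and 127 FPKM in transgenic 1 and 2 and 120 and 108 FPKM in wild type 1 and 2, and its values differed little between numbers (-0.04 ± 0.11). The tumour necrosis factor receptor gene Tnfrsf1a had 16.2 and 11.6 FPKM in transgenic 1 and 2 and 13.2 and 9.99 FPKM in wild type 1 and 2. The lymphotoxin receptor gene Ltbr, which feeds the NIK route, had 9.99 and 8.05 FPKM in transgenic 1 and 2 and 8.47 and 7.36 FPKM in wild type 1 and 2. Of the 24 adaptors 22 were compared; 4 fell (Ticam1, Birc3, Rnf31 and Traf3ip2) and 1 rose (Tradd), all named after their values were seen. Of the 17 other inhibitors and co-regulators 16 were compared, and 3 fell (Tnip1, Tnip2 and Nfkbid) and 1 rose (Otud7b). Tnip1, a partner of A20, had 6.11 and 4.53 FPKM in transgenic 2 and wild type 2, against 8.64 and 8.78 FPKM in transgenic 1 and wild type 1 (limma adjusted p = 0.0296). Nfkbid, an atypical nuclear I-kappa-B, fell by 0.40 ± 0.10 on the log2 scale (limma adjusted p = 0.0449), and its relative Bcl3 differed by -0.55 ± 0.17 (limma adjusted p = 0.0683). Bcl3 had 5.28 and 3.58 FPKM in transgenic 1 and 2 and 4.33 and 2.43 FPKM in wild type 1 and 2, higher in the transgenic library of both numbers. No gene of these lists was called between genotypes in limma.

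**Figure D5:**
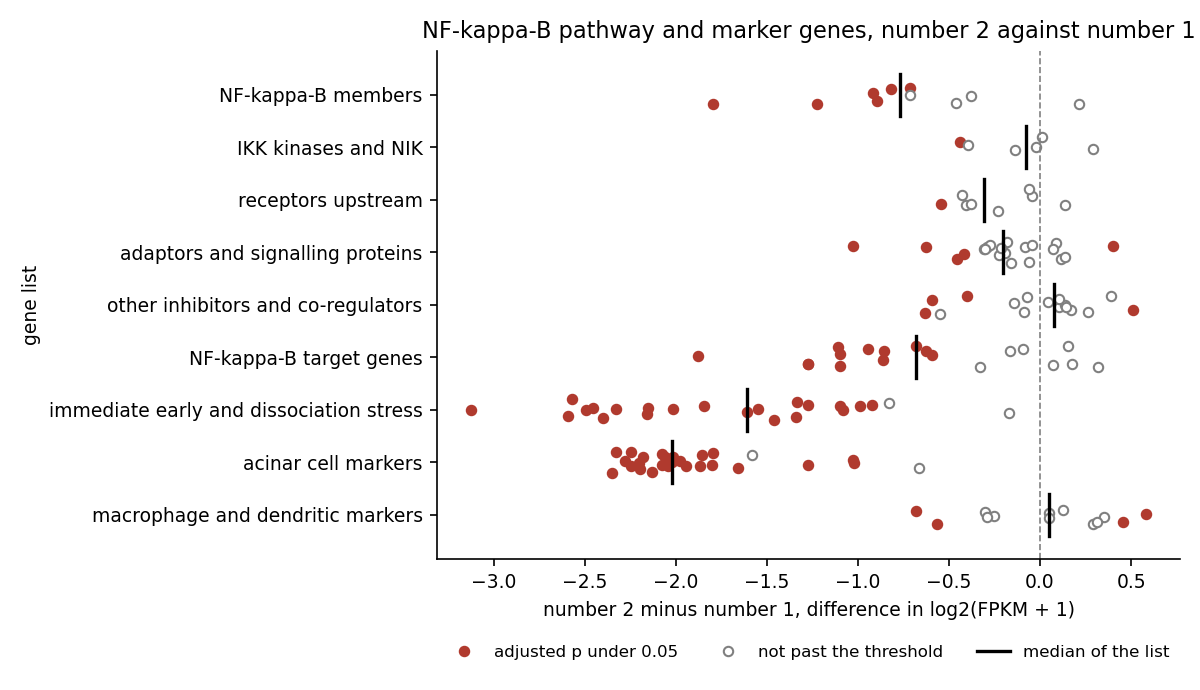
Difference in log2(FPKM + 1) of number 2 minus number 1 for each gene compared, in 9 lists; red points have a limma adjusted p under 0.05, open points do not, and the black line is the median of the list. The medians are -0.77 for the members, -0.68 for the target genes and -1.61 and -2.02 for immediate early genes and acinar markers, whereas that of macrophage and dendritic markers is 0.05. Those of members, targets, immediate early genes and acinar markers include 2, 5, 1 and 2 genes that had to be lower in number 2.

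Lists from outside the pathway also differed between numbers. The summed level of the immediate early genes was 1274 and 932 FPKM in transgenic 2 and wild type 2, against 6205 and 4337 FPKM in transgenic 1 and wild type 1, and 21 of 23 fell (limma). The acinar markers stood at 2469 and 1502 FPKM against 9224 and 6920 FPKM in the same order, and 25 of 27 fell. Of those that fell, 1 immediate early gene and 2 acinar markers had to be lower in number 2 to be compared. Without them 20 of 22 and 23 of 25 fell, against 9.08% of the genes that did not depend on number 1 in this way. The macrophage and dendritic markers summed to 175 and 199 FPKM in transgenic 2 and wild type 2, against 209 and 184 FPKM in transgenic 1 and wild type 1, with 2 lower, 2 higher and none of the 20 without reads in any library. The endothelial markers stood at 107 and 90.7 FPKM against 137 and 110 FPKM in that order. The beta cell markers, dominated by Ins2, stood at 271750 and 287140 FPKM against 151770 and 224080 FPKM in that order, with 4 of 14 higher. The part of these in the members' values was not tested.

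Nfkbia was the only member with both transgenic libraries above both wild-type ones. The genes whose profile over the 4 libraries lay nearest to its own were sought (smallest Euclidean distance of centred log2(FPKM + 1) among the genes compared). They were Cited4, Ddit4, Ltbp4, Gpsm1 and Chpf, at distances of 0.07 to 0.14. Ddit4, which encodes a stress-induced inhibitor of mTOR signalling, had 97.2 and 57.6 FPKM in transgenic 1 and 2 and 58.3 and 51.5 FPKM in wild type 1 and 2. Cited4, which encodes a transcriptional co-activator, had 10.3 and 6.82 FPKM in transgenic 1 and 2 and 6.34 and 5.50 FPKM in wild type 1 and 2. In all 5, as in Nfkbia, transgenic 1 stood highest and wild type 2 lowest. All other members except Nfkbiz and Nfkb1 had this order too. The 5 genes were picked for nearness to Nfkbia, so their likeness to it is not a separate result.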

How the data were processed

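Per the labels' protocols, frozen islets were extracted with Trizol and total RNA went into an Illumina TruSeq RNA kit. The authors deposited 1 table of FPKM per gene; the submitters' processing notes name HTSeq 0.6.0 and GRCm38. Aligner and strand setting are not given in the sources used here. FPKM times gene length came to whole multiples of 1 step per library for 100% of values above 0 (within 0.001), and these were taken as reads. For a gene of 1 kilobase listed at 0, the limit of 3 reads stands at 0.116 to 0.143 FPKM. Genes with at least 1 FPKM in at least 2 libraries were tested together with limma 3.58.1 in R 4.3.3 (eBayes with trend) on log2(FPKM + 1), 2-sided, with Benjamini-Hochberg adjustment and a threshold of 0.05. Genotype, or library number, was the only term. Fold changes on that scale understate those of low genes. When tested on simulated data, this fit missed many small changes, and the share of false calls was above the threshold. The simulated libraries held no difference between numbers when genotype was tested, whereas these libraries do. The simulation therefore does not show what the genotype fit missed here. Intervals of ratios are exact binomial at 95% (SciPy 1.17.1). The members, lists, tests and rule for named genes were chosen with earlier results of these data known; the rule took all members, up to 4 genes per pathway list by smallest genotype p, 8 pathway genes and the 5 profiles nearest to Nfkbia. Another pseudocount, other filters and scalings, a term for number, voom on reads, a correction for GC content (known for 12705 genes) and leaving out each library were tried.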

Additional observations from a re-analysis of the deposited data

Results flagged for a closer look

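In 2 members the difference of transgenic minus wild type had opposite signs in the libraries numbered 1 and 2. On the log2(FPKM + 1) scale that of Nfkbiz was -0.02 among the libraries numbered 1 and 0.16 among those numbered 2, which thus exceeded the others by 0.179. For Nfkb1 it was 0.09 in number 1 and -0.02 in number 2, a difference of -0.106. With 1 library per genotype and number, neither difference was tested.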

How the results depend on the processing

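For transgenic over wild type, 0 genes were called under every limma setting and in voom without a term for number. Libraries of the same number deviated together from their group means (Pearson's r = 0.775 across genes), but the labels state no pairing. With the replicate block limma still called 0; voom with the block called 94 higher and 13 lower, 2 members among the higher, and 57 and 14 with the GC curve removed, again 2 members higher. These were Nfkbia (0.42, adjusted p = 0.0496; 0.36, adjusted p = 0.0269 with the curve removed) and Tnfaip3 (0.59, adjusted p = 0.00522; 0.64, adjusted p = 3.0e-06). That block leaves 1 residual degree of freedom per gene. In voom with the block, removing the GC curve took the log2 fold change from 0.29 to 0.10 for Rela and from 0.25 to 0.06 for Nfkb2. It went from 0.41 to 0.22 for Nfkbib, from 0.39 to 0.24 for Relb and from 0.35 to 0.23 for Nfkbie. For Nfkb1, Rel, Nfkbiz and Tnfaip3 it rose. Over the libraries left out, the log2 fold changes of genotype ran from -0.10 to 0.17 for Nfkb1, -0.28 to 0.83 for Nfkb2, -0.12 to 0.67 for Rela, -0.23 to 1.03 for Relb, -0.56 to 0.69 for Rel, -0.0087 to 0.82 for Nfkbib, -0.067 to 0.45 for Nfkbie, -0.38 to 0.53 for Nfkbiz and -0.52 to 1.45 for Tnfaip3; each leaves the numbers unequal between genotypes. The count of 8 members higher in both numbers was also 8 under the other scalings, and 6 at 5 FPKM, which left Rel and Nfkbie out. Another pseudocount, or no filter, could not change this count, since neither alters which library of a pair is higher. It was not counted again with the GC curve removed.

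For number 2 over number 1, no member changed sign. With no filter on low values 102 genes were called higher and 172 lower, and 1 member; Nfkb2 (-0.90), Rela (-0.71), Relb (-0.92), Nfkbiz (-0.82) and Tnfaip3 (-1.80) kept their fold changes but lost their calls, as Relb did with a pseudocount of 0.1 (-1.14). Voom with the replicate block called 2598 higher and 2758 lower, and 2359 and 2750 with the GC curve removed. It added Nfkb1 (0.24; 1 member higher), Nfkbia (-0.39, and -0.33 with the curve removed), Nfkbib (-0.79 and -0.68) and Nfkbie (-0.88 and -0.79). Nfkbib was also called at 5 FPKM (-0.72), with median-of-ratios scaling (-0.73), with the block in limma (-0.72) and in voom alone (-0.82), and Nfkbie with the block in limma (-0.46) and in voom alone (-0.90). Over the libraries left out, genes called ran from 392 to 765 higher and 443 to 1057 lower, and members from 3 to 7. Fold changes then ran from -1.14 to -0.65 for Nfkb2, -0.89 to -0.53 for Rela, -1.29 to -0.54 for Relb, -0.72 to -0.043 for Nfkbia and -0.97 to -0.46 for Nfkbib. Each of these fits leaves the genotypes unequal between numbers and has no term for genotype. The causes were not tested.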
